A study of Mus musculus with 4 samples.

Results

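The Iroquois genes Irx1 to Irx6 were examined for open chromatin in the posterior forelimb bud of the mouse. The assay was ATAC-seq. It uses the transposase Tn5 to cut accessible DNA, and each library gave a list of peaks, the stretches where cuts piled up. An Irx peak was any peak that overlapped the body of 1 of the 6 genes or the 150 kb on either side of it, in mm10 coordinates with GENCODE M21 gene models. By this rule 77 of 75101 peaks belonged to the Irx genes. Merging peaks that overlapped by at least 1 bp left 49 Irx regions of 44692 regions in all. The genes were chosen by peak calls: they were proposed with the peak lists of these same 4 libraries in view, so the calls, positions and ranks below are a description and no test was applied to them.

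Of the 4 libraries, 2 came from wild-type (WT) embryos and 2 from Shh-/- embryos homozygous for the Shh tm1amc null allele. The study kept this allele on a Swiss Webster background and did not state the strain of the WT embryos for this assay. Each library was made from the posterior fractions of the forelimb bud pair of a separate embryo with 35 somites at E10.5. The null allele removes Sonic hedgehog (SHH) from the whole embryo, not from the limb alone.

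Iroquois proteins are homeodomain transcription factors of the TALE class. In mammals their genes lie in a pair of clusters, Irx3, Irx5 and Irx6 in the first and Irx1, Irx2 and Irx4 in the second, with long stretches between the genes that carry enhancers. In the early limb bud Irx3 and Irx5 act together in the progenitors of the proximal and anterior skeleton, and SHH signaling limits where they are expressed. Irx4 is known for its role in the ventricles of the heart.

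The lists differed in size before any gene was considered, with 39080 and 11973 peaks in WT replicates 1 and 2 and 5589 and 18459 in Shh-/- replicates 1 and 2. They hold no read counts, so the depth of each library could not be read from them, and a missing peak was not called, which is not the same as closed chromatin there. Promoter peaks, which overlapped the stretch from 2 kb before to 1 kb after a transcription start site (TSS), made up 42.1% of the list in WT replicate 1 and between 63.3% and 72.3% in the other 3 lists. Among cell type markers, 6, 4, 2 and 4 of 6 limb mesenchyme genes had a promoter peak in WT replicates 1 and 2 and Shh-/- replicates 1 and 2. The forelimb gene Tbx5 had a promoter peak in WT replicate 1 only, and the hindlimb genes Pitx1 and Tbx4 had 2, 0, 0 and 1 of 2. Of the other lists, limb ectoderm had 0, 0, 0 and 1 of 4, muscle progenitors 2, 1, 0 and 2 of 2, endothelium 1, 0, 0 and 1 of 3, blood 1, 0, 0 and 0 of 3 and neural genes 1, 0, 0 and 1 of 3. Over all protein-coding genes, 37.9% had no promoter peak in any library. The share called in each library was not set beside these marker counts, so they cannot check the tissue label. The part of list size, promoter share and other cell types in the calls below was not tested.

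Of the peaks described below, 5 sequences are printed as examples. The first is the Irx3 region called in both Shh-/- libraries and in no WT library, and the second is an Irx3 region that joined that class when all lists were cut to equal length. Next is the strongest WT peak within a known limb enhancer near Irx3. The last 2 are the best ranked promoter peaks of Irx5 and Irx2. The equal-length region and the enhancer peak were chosen after their values were seen. Each is 200 bp around a peak summit on the plus strand of GRCm38.p6, the assembly of mm10, with every CpG in capitals.
Irx3, Shh-/- only, chr8:91679597-91679796: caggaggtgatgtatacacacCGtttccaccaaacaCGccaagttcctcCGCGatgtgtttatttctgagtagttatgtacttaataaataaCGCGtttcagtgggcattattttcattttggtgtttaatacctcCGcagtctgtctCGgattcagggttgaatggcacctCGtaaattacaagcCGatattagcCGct
Irx3, Shh-/- only at equal list size, chr8:91948488-91948687: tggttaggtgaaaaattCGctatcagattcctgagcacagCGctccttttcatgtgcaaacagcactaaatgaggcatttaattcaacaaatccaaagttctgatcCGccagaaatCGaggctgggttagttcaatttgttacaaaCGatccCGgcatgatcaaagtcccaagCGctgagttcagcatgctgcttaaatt
Irx3, limb enhancer, chr8:91713928-91714127: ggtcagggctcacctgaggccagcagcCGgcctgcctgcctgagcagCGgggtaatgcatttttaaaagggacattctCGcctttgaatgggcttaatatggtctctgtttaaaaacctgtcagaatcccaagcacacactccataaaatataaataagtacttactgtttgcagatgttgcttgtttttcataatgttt
Irx5, promoter, chr8:92356025-92356224: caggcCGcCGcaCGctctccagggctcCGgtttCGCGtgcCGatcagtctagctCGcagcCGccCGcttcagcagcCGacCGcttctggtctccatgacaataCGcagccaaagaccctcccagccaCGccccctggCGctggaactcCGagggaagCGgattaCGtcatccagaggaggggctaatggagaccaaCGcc
Irx2, promoter, chr13:72628619-72628818: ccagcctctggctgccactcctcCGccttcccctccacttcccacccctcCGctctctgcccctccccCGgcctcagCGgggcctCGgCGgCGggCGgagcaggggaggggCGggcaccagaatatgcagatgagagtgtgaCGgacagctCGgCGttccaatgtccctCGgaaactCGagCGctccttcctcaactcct

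The 3 Irx3 sequences, all far from the Irx3 promoter, had a GC content of 43%, 43% and 44%, with 11, 7 and 3 CpG. The promoter sequences had 65.5% with 19 CpG at Irx5 and 68.5% with 15 CpG at Irx2, and the Irx3 promoter, not printed, had 55.5% with 10 CpG.

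The Irx3-Irx5-Irx6 cluster lies on chromosome 8, with Irx3 at chr8:91798525-91802067 on the minus strand, Irx5 at chr8:92357625-92376286 and Irx6 at chr8:92674288-92680956 on the plus strand. The Irx1-Irx2-Irx4 cluster lies on chromosome 13, with Irx1 at chr13:71957921-71963723 on the minus strand, Irx2 at chr13:72628820-72634198 and Irx4 at chr13:73260479-73269608 on the plus strand. Neighbouring Irx genes were 298 to 665 kb apart, so the windows of Irx5 and Irx6 overlapped slightly, without sharing a peak, and long stretches between the other genes lay outside them.

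**Figure D1:**
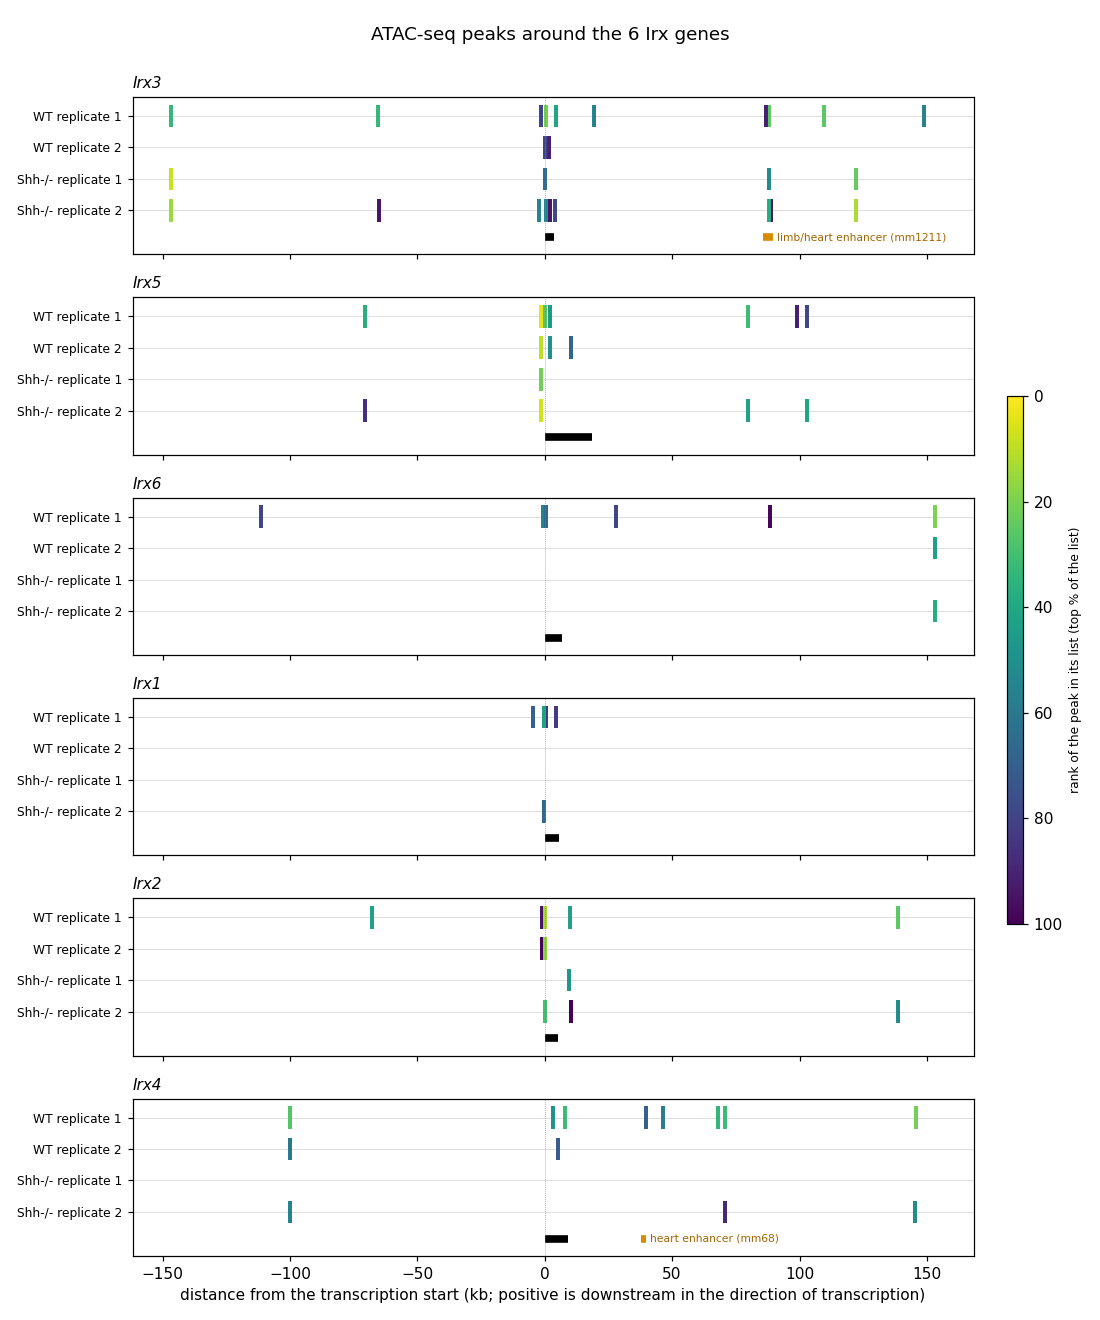
Positions of Irx peaks in the 4 libraries. The horizontal axis of each panel is the distance from the TSS of the gene in kb, each row is a library, each mark is a peak drawn at a fixed width, and its colour is the percentage of the list ranked at or above it. Black bars are gene bodies and orange bars are enhancers annotated in RefSeq. Irx3 held the most peaks in Shh-/- replicates 1 and 2, with 4 and 9.

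Irx3 was the Irx gene with the most open chromatin calls. By raw count, not adjusted for list size, it was the only one whose mean was not lower in Shh-/- than in WT. Per-gene shares of each list were not compared, so this is not a trait shown to be particular to Irx3. It had 10 and 2 peaks in WT replicates 1 and 2 and 4 and 9 in Shh-/- replicates 1 and 2. The means were 6 ± 5.66 in WT and 6.5 ± 3.54 in Shh-/- (SD, n = 2 each), and the libraries of the genotypes overlapped. All 5 other genes had lower means in Shh-/-. Irx5 had 7 and 3 peaks in WT and 1 and 4 in Shh-/-, Irx6 had 6 and 1 against 0 and 1, and Irx2 had 5 and 2 against 1 and 3. The single Irx6 peaks of WT replicate 2 and Shh-/- replicate 2 were at the promoter of a neighbouring gene, Mmp2, 153 kb from the Irx6 TSS. Irx4 had 8 and 2 against 0 and 3, and Irx1, with the fewest peaks, had 4 and 0 against 0 and 1. The genotypes overlapped or met at every one of these genes, and WT replicate 1 had the highest count at each.

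Over all 6 genes the libraries had 40 and 10 Irx peaks in WT and 6 and 21 in Shh-/-, means of 25 ± 21.2 and 13.5 ± 10.6 (SD, n = 2 each). The libraries stood in the same order by Irx peaks as by list size. As a share of each list, Irx peaks made up 0.102% and 0.0835% in WT and 0.107% and 0.114% in Shh-/-, while the Irx windows, 1.849 Mb in all, covered 0.0678% of the genome. With all lists cut to the length of the shortest, the 5589 peaks with the highest scores (equal list size), the difference in mean number, WT minus Shh-/-, turned from 11.5 to −2.5, and without WT replicate 1 it was −3.5.

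**Figure D2:**
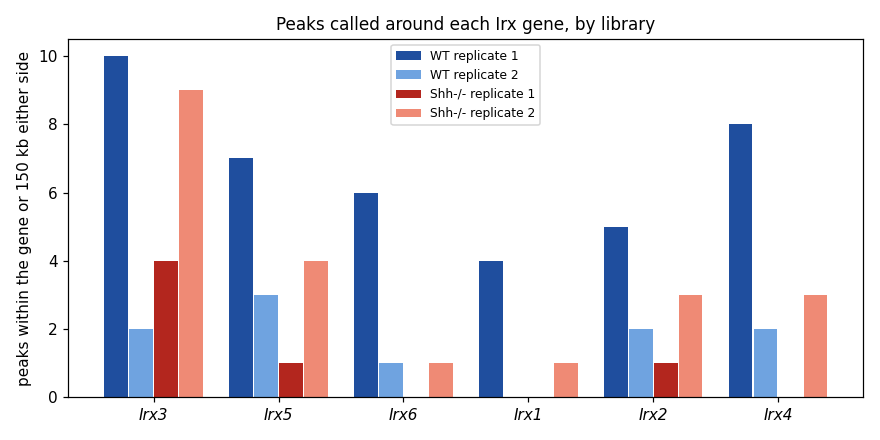
Number of Irx peaks per gene in each library. Bars start at 0 and give the peaks in the gene body and 150 kb on either side, with 1 bar per library and no error bar since each bar is a single embryo. Irx3 had 10, 2, 4 and 9 peaks, and WT replicate 1 had the highest count at every gene.

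The rank of a peak was its place by score within its own list, given as the percentage of the list ranked at or above it, so that low values mark strong peaks. The median Irx peak stood at 42.8% and 64.3% in WT replicates 1 and 2 and at 35.8% and 54.7% in Shh-/- replicates 1 and 2. Irx peaks were thus spread over the lists, from 3.95% to 99.6%. In the top 25% of the lists there were 5 of 40 and 2 of 10 Irx peaks in WT and 3 of 6 and 3 of 21 in Shh-/-.

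**Figure D3:**
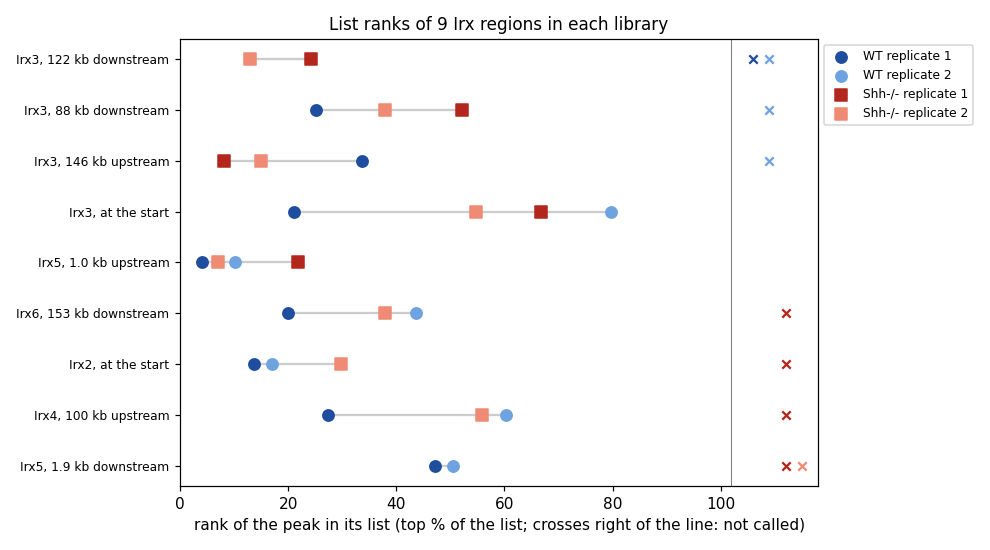
Rank of peaks within each list for selected Irx regions. These were called in all 4 libraries, in all but a single library, or in both libraries of a single genotype alone. Other Irx regions are not drawn. The horizontal axis is the percentage of the list ranked at or above the peak, circles are WT and squares Shh-/- libraries, and crosses to the right of the line mark libraries with no call. The Irx5 promoter region stood at 3.95%, 10.1%, 21.8% and 6.94% in the 4 lists.

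A single Irx region was called in both Shh-/- libraries and in no WT library, 2.04% of the 49 Irx regions beside 0.396% of all 44692 regions. It lay at chr8:91679468-91680120, between genes, 122 kb downstream of the Irx3 TSS and 11.03 kb beyond the 3′ end of Fto, the neighbouring gene whose introns are known to contact Irx3. Its peak in Shh-/- replicate 1, chr8:91679608-91680081, ranked 1350 of 5589 (24.2%), and the peak in Shh-/- replicate 2 spanned the whole region and ranked 2367 of 18459 (12.8%). Both were thus in the top 25% of their lists, they shared 474 bp, and their summits were 110 bp apart. The nearest WT peak was 11.9 kb away, at chr8:91692037-91692535 in WT replicate 1, where it stood at 25.1%.

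This region held more CpG than the median region of its class. It held 11 CpG in 200 bp, against a median of 2 over the 177 regions of the series called in both Shh-/- libraries alone, while its GC content of 43% was near their median of 41.5%. A higher CpG count was not particular to it, since the median over all distal Irx regions was 7, against 3 over all distal regions.

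The reverse class, with calls in both WT lists but neither Shh-/- list, also held a single Irx region, 2.04% of Irx regions beside 2.09% of all regions. It was chr8:92359520-92359892, in an exon of Irx5 1.90 kb past its TSS, and was weak, at 47.1% of the list in WT replicate 1 and 50.4% in WT replicate 2. It no longer qualified when peaks needed a score of at least 50 or at equal list size.

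All libraries but WT replicate 2 called an intergenic region 146 kb upstream of Irx3 at chr8:91948290-91949185. It was the best ranked Irx peak of Shh-/- replicate 1, at rank 453 (8.11%). The peak of Shh-/- replicate 2 ranked 2769 (15%) and that of WT replicate 1 ranked 13140 (33.6%), with summits within 137 bp. The region thus stood higher in both Shh-/- lists than in the WT list that called it. It also lay near the limit of the window: the regions just inside that limit were this one and chr8:91653227-91653576, an Fto intron peak of WT replicate 1, and those just outside were chr8:91973510-91974331 and chr8:91629963-91630822, both called in the same 3 libraries.

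At equal list size 8 Irx regions were left, and 2 of them (25%) were called in both Shh-/- libraries and in no WT library beside 3.30% of 9283 regions. These were the region near Fto and the region 146 kb upstream. In the reverse class there were 0 of 8, beside 3.73% of all. With 8 regions, each counts for much of the share.

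The same 3 libraries shared a region within mm1211, an element at chr8:91712437-91716525 that RefSeq lists as active in the limb of 10 of 10 transgenic embryos and in the heart of 8 of 10. The region, chr8:91713825-91714421, was 87.6 kb downstream of the Irx3 TSS, at the promoter of the long noncoding RNA gene Gm36325. WT replicate 1 had it at 25.1% of the list, and Shh-/- replicates 1 and 2 at 52.1% and 38.0%, with summits within 74 bp. As a share of the list it stood higher in the WT library than in either Shh-/- library, but by place it was 9823 in WT replicate 1 against 2913 and 7009 in Shh-/- replicates 1 and 2, and at equal list size only Shh-/- replicate 1 kept it. The element also held a weak peak of WT replicate 1 (91.8%) and a weak peak of Shh-/- replicate 2 (94.7%), and WT replicate 2 had 0 peaks in it. These 2 Irx3 regions were the only Irx regions called in all but WT replicate 2, 4.08% of Irx regions beside 2.26% of all.

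The other Irx regions called in a Shh-/- library and in no WT library came from Shh-/- replicate 2 alone. With the region near Fto there were 5 in all, 10.2% of Irx regions beside 8.74% of all regions, and 4 of the 5 were at Irx3. The best ranked of those 4 single-library regions was chr8:91804090-91804512 (54.7%), in an exon of Irx3os, a noncoding RNA gene overlapping Irx3. It was followed by chr8:91797785-91798042 (78.7%), 4.03 kb downstream of the Irx3 TSS. They lay 0.502 kb and 41 bp from peaks of WT replicate 1, so calls of both genotypes lay close together there. The Irx2 region of this kind, chr13:72639155-72639385, stood at 99.6% and lay 0.333 kb from a WT peak.

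Regions called in at least 1 WT library and in no Shh-/- library numbered 27, 55.1% of Irx regions beside 58.0% of all. Of these 23 were called in WT replicate 1 alone, 46.9% beside 51.6%. These shares were near those of all regions.

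Promoters of Irx3 and Irx5 were called in all 4 libraries, as were 16.1% of protein-coding promoters. The Irx3 promoter region, chr8:91800602-91802241, was of middle strength, at 21.01% and 79.7% of the lists in WT and 66.8% and 54.7% in Shh-/-, with summits within 88 bp. The Irx5 region, chr8:92355482-92356617, overlapped the start of the long noncoding RNA gene Crnde and ended 1.01 kb before the Irx5 TSS. It held the best ranked Irx peak of 3 lists, at 3.95% and 10.1% in WT and 6.94% in Shh-/- replicate 2, and stood at 21.8% in Shh-/- replicate 1. At the Irx5 TSS itself only WT replicate 1 had a peak (26.8%). These 2 promoter regions were the only Irx regions called in all 4 libraries, 4.08% beside 7.97% of all regions.

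The other promoters were called in fewer libraries. Of protein-coding genes, 22.2% had a promoter peak in 3 libraries, 13.6% in 2 and 10.4% in 1. Calls in all libraries but Shh-/- replicate 1 made up 6.12% of Irx regions beside 11.3% of all. Irx2 had a promoter region at chr13:72628185-72629317 in 3 libraries, at 13.6% and 17.1% in WT and 29.7% in Shh-/- replicate 2, and Shh-/- replicate 1 had no peak there. Irx1 had one at chr13:71963632-71964139 in WT replicate 1 (42.8%) and Shh-/- replicate 2 (66.2%). Irx6 had promoter peaks in WT replicate 1 only, the better at 55.4%. Irx4 had none in any library, as did 37.9% of protein-coding genes, and its nearest peak was in an intron 2.85 kb past the TSS in WT replicate 1 (49.0%). Irx4 was the only member of the family with no promoter call.

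The chromosome 13 cluster had 1 peak in Shh-/- replicate 1, in 5% of its 20 regions. That list held 5589 peaks beside 44692 regions in all, and 2049 distal peaks beside 27184 distal regions. The peak was chr13:72638251-72638532, downstream of Irx2, at 47.5%, in a region also called in WT replicate 1 at 42.8%. The Irx4 region with the most calls was chr13:73160076-73160679, 99.8 kb upstream, at 27.3% and 60.3% in WT and 55.9% in Shh-/- replicate 2. A heart enhancer downstream of Irx4, mm68 at chr13:73298274-73300313, had 1 peak, 39.7 kb from the Irx4 TSS, in WT replicate 1 at 69.7%. Calls in WT replicate 1 and Shh-/- replicate 2 alone made up 16.3% of Irx regions beside 11.03% of all. In the Irx5 window 3 distal regions had this pattern. The best ranked of them in WT, chr8:92437060-92437572, stood at 31.0% and 43.7%, and the best ranked in Shh-/-, chr8:92460333-92460967, at 79.5% and 40.7%. The windows also held the promoters of Mmp2, a matrix metalloproteinase gene near Irx6, and of Ndufs6 and Mrpl36, nuclear genes for mitochondrial proteins near Irx4. The strongest Irx6 region, chr8:92827205-92827862 (19.9% in WT replicate 1), was the Mmp2 promoter.

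The GC content of Irx regions had a median of 56% and a range of 33% to 75%, against a median of 55.5% over all regions. They held more CpG, with a median of 8 in 200 bp against 4 over all regions, and 7 against 3 among distal regions. Among promoter regions the order was reversed, with a median of 11.5 in Irx regions against 14 over all. Distal regions made up 31 of 49 (63.3%), against 60.8% of all.

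**Figure D4:**
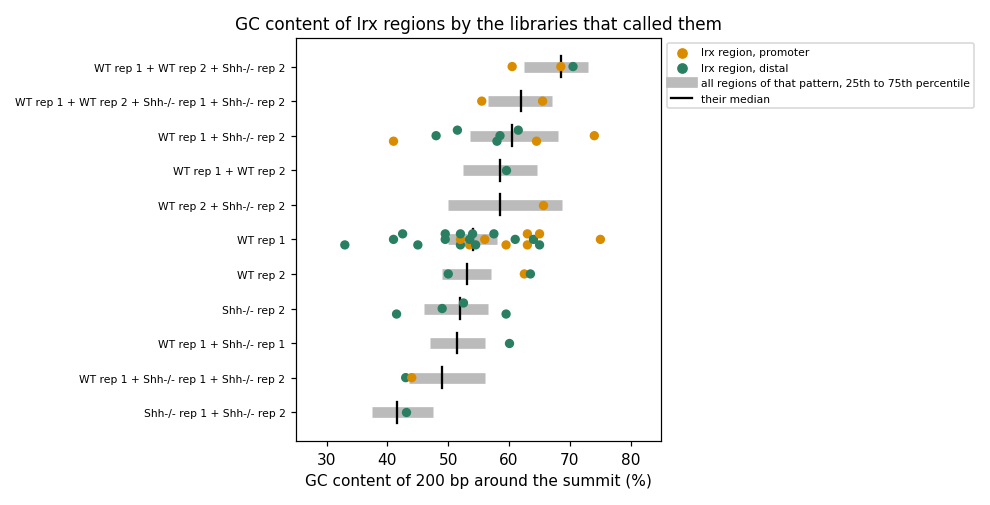
GC content of Irx regions by the libraries that called them. Each row is a call pattern, the horizontal axis is the GC content in percent of 200 bp around the summit, dots are Irx regions (orange promoter, green distal), and grey bars and black lines give the 25th to 75th percentile and median of all regions of that pattern. The Shh-/- only region lay at 43%, near the median of 41.5% for its pattern.

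Motifs were searched on both strands of the 200 bp windows. TGGGTGGTC, the core bound by GLI proteins, with up to 1 mismatch, was in 0 of 49 Irx regions and in 5.62% of all. The Iroquois motif ACANNTGT was in 4 of 49 (8.16%) and in 5.91% of all. Of those 4, 3 were at Irx1 and 1 at the Irx2 promoter. The homeodomain core TAATTA was in 4 of 49, beside 4.03% of all. These are matches of letters in short windows and do not show binding.

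Counted by gene, 1 of the 6 Irx genes, Irx3, had a region called in both Shh-/- libraries alone in its window, beside 1.22% of protein-coding genes with the same window. The WT-only class was present at 1 of 6, Irx5, beside 20.9% of protein-coding genes. The windows of the Irx genes held 4 to 15 regions, against a median of 8 over all genes, and a window with more regions has more chances to hold any class. Irx3, with 15 regions, had more than 67.3% of genes, and Irx1, with 4, had more than 28.8%.

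Finally, the share of its regions that each library called was compared across genes as a measure of likeness. For scale, the lists held 39080 and 11973 peaks in WT and 5589 and 18459 in Shh-/-, beside 44692 merged regions in all. The clusters had 29 regions on chromosome 8 and 20 on chromosome 13. The chromosome 8 cluster had 79.3% and 20.7% of its regions called in WT and 17.2% and 48.3% in Shh-/-, and the chromosome 13 cluster 85% and 20% in WT and 5% and 35% in Shh-/-. Nearest to the first among 9498 genes, by Euclidean distance over 4 libraries, were Sctr (3.40 percentage points), Erlin2, Lipe, Pogz and F12 (5.59). Nearest to the second were Eif2b2 and Mlh3, with the same shares, then Rnf216, Castor1 and Osm (1.73). Eif2b2 and Mlh3 both had 20 regions and the same count in every class. Windows of nearby genes can share regions, so these need not be separate matches. This was a search of 9498 single-gene windows on 4 shares, set against the pooled windows of each cluster. Near matches are easily found in such a search, so no conclusion about the Irx genes is drawn from them.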

How the data were processed

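ATAC-seq peak lists of 2 WT and 2 Shh-/- libraries, grouped by the genotype in their titles, were analysed. In the study, 5000 cells per library were tagmented with Nextera reagents, amplified for 18 PCR cycles and sequenced as paired ends. The submitters' processing notes name Bowtie2 2.2.5 and MACS2 2.1.0. Peaks were called per library, using 200 bp windows and keeping peaks with q-values under 0.05, and replicates were not pooled. Read filters and a Tn5 shift are not given in the sources used here. The authors deposited a score and a summit with each peak. The scale of the score is not stated in the files, so it was used only to rank or filter within a list, and ties were broken by genome position. The fold, p-value and q-value columns of the deposited lists held 0.

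Peaks on 21 chromosomes were merged with pandas 2.3.3 in Python 3.11.15, after a check on simulated data, and sequences were read with pysam 0.24.0. Members and gene lists were chosen with earlier results of these data known. Regions were named if called in both libraries of 1 genotype alone or in all 4, if at an Irx promoter, or if best ranked in a list or among Shh-/- only regions. Neighbours, the 5 most alike genes per cluster (at least 10 regions, over 1 Mb away) and the regions in RefSeq enhancers were named too, the last after their values were seen. A comparison with other limb genes is not reported here. Windows of 50 and 500 kb, 1 span per cluster, equal list size, a score of at least 50, sharing by summit, ties and leaving out each library were tried. The study states a sequencing depth for the assay, but reads per library were not analysed here.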

Additional observations from a re-analysis of the deposited data

How the results depend on the processing

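Counts of Irx regions by class were small and moved with the processing. The region called in both Shh-/- libraries alone (1) became 0 with 50 kb windows, since it lies 118.4 kb from the gene, and 2 with 500 kb windows. At equal list size, also with tied peaks at the limit kept or left out (both chosen after seeing the data), that count was 2, the WT-only count (1) was 0 and the count called in all 4 libraries (2) was 1. With a score of at least 50 the WT-only count was 0 and the count in all 4 was 1. Leaving out 1 library gave 1 to 5 Shh-/- only regions (3 without WT replicate 1, 5 without Shh-/- replicate 1), 1 to 24 WT-only regions (24 without WT replicate 2, 4 without WT replicate 1 or Shh-/- replicate 2) and 2 to 5 regions in all remaining libraries (4 without WT replicate 2, 5 without Shh-/- replicate 1). The mean number of peaks, WT minus Shh-/- (11.5), turned to −2.5 at equal list size, −2 with ties kept and −2.5 with ties left out, and ranged from −3.5 without WT replicate 1 to 26.5 without WT replicate 2. It was 2 with a score of at least 50, 17.5 with 500 kb windows, 9 with 50 kb windows and 11 with 1 span per cluster. The cause was not tested. The median rank of Irx peaks, 50.4%, was 46.6% with the best and 52.7% with the worst rank among ties. No paired analysis was possible because the libraries came from separate embryos with no stated litter or batch that ties equal replicate numbers, and the results are descriptions with no test.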
